A study of Mus musculus with 6 samples.

Results

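Interferon regulatory factors (IRFs) were followed through RNA sequencing of induced T (iT) cells, by taking from the table of gene expression the rows named Irf1, Irf2, Irf3, Irf4, Irf5, Irf7, Irf8 and Irf9. All 8 were present among the 23420 rows of the table, and all 8 were among the 10476 genes tested. The rows were taken by gene name, and the family was chosen for study with earlier results of these data known. The iT cells, single-positive for CD4 (CD4SP) or for CD8 (CD8SP), came from mouse embryonic stem cells of C57BL/6 background that carried a doxycycline-inducible Runx1-p2a-Hoxa9 cassette at the Rosa26 locus (iR9 cells). Hematopoietic progenitors induced from these cells with doxycycline in culture were transplanted into irradiated B-NDG mice, a strain without T, B and NK cells of its own, aged 8 to 10 weeks. The study describes transplanting such progenitors without further doxycycline where it followed blood T cells, and does not repeat this for the mice behind these libraries. At week 5, donor cells were sorted from the spleen by CD4 or CD8 after exclusion of erythroid, B and myeloid surface markers, and each library was made from 1000 cells, with 3 libraries per population. Both populations therefore share the cassette, the donor line and the host strain, the host offers no lymphocytes of its own, and the iR9 line is a selected clone. The study calls the libraries biological replicates, but the labels do not say whether they came from separate mice, so the p-values measure the spread between these libraries, which may be technical.

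IRFs are transcription factors that share a DNA-binding domain at the amino terminus and bind GAAA repeats such as the interferon-stimulated response element (ISRE). IRF3 and IRF7 switch on type I interferon genes when nucleic acid sensors are triggered, and IRF9 is the DNA-binding part of a complex that carries the type I interferon signal to the nucleus. In T cells, IRF1 acts downstream of interferon-gamma, IRF2 can oppose it, and IRF4 is induced by the antigen receptor and works with BATF and JUN proteins in effector and regulatory cells.

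Of the 8 genes, Irf5 and Irf4 passed the test with higher values in CD4SP iT cells, where passing means a Benjamini-Hochberg adjusted p under 0.05 in limma and a difference over 2-fold. Irf5 was 6.12 times and Irf4 2.57 times as high in the mean of the CD4SP libraries as in that of the CD8SP libraries. The 2 genes called higher in CD4SP stand against 7.92% of all tested genes called in that direction. No IRF gene was called higher in CD8SP, where 1.80% of tested genes were called, and at an unadjusted p under 0.05 the counts were 0 toward CD8SP and 5 toward CD4SP. On the adjusted p alone, Irf1, Irf4, Irf5, Irf8 and Irf9 passed, all 5 higher in CD4SP, against 17.6% of tested genes. In 6 of the 8 genes every CD4SP library lay above every CD8SP library, and the same held for 36.6% of tested genes. These counts depend on how libraries are scaled to each other. Over all genes, 81.5% of calls were toward CD4SP, against 61.9% after median-of-ratios rescaling and 57.1% after quantile normalization. Under either of these rescalings Irf5 was the one IRF gene to keep an adjusted p under 0.05. The median log2 difference between CD4SP and CD8SP was 0.66 over the 8 genes and 0.28 over all tested genes. Since the median of all genes was itself above 0, each difference is given below also relative to it. Rescaling by median of ratios brought the median of all genes to 0.00016, and quantile normalization brought it to -0.015.

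The promoter sequences of 5 of the genes are printed here, Irf4 and Irf5 because they passed the test, and Irf1, Irf2 and Irf8 because their windows held a match to an element of the interferon pathway. Each window is the 250 bases before the first RefSeq start of the gene (assembly GRCm38.p6, plus strand), 5′ to 3′, and capitals mark the matches. Searched on both strands were an ISRE core made of 2 GAAA repeats with 2 bases of any kind between them, the gamma-activated sequence (GAS), TTCNNNGAA, and the AP-1 site, TGANTCA. RefSeq windows were found for all 8 genes, 11 in all.
Irf1, chr11:53769764-53770013: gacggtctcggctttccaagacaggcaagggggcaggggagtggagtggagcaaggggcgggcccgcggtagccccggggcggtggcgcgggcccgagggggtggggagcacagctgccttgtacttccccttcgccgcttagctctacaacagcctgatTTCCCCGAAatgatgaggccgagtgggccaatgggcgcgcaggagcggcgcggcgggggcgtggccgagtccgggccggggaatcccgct
Irf2, chr8:46739495-46739744: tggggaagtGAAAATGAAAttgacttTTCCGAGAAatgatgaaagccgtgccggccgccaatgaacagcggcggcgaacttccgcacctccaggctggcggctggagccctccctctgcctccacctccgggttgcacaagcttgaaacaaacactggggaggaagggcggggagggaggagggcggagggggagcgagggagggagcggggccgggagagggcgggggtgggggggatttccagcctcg
Irf4, chr13:30748983-30749232: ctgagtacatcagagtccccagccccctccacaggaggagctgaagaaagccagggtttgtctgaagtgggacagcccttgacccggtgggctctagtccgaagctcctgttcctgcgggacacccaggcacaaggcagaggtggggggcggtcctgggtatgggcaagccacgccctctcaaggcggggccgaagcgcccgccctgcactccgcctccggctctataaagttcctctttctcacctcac
Irf5, chr6:29526375-29526624: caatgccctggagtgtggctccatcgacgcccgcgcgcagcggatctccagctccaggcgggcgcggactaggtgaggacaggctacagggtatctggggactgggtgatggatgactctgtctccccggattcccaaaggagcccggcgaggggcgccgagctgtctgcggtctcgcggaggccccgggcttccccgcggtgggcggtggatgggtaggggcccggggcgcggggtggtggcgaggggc
Irf8, chr8:120736108-120736357: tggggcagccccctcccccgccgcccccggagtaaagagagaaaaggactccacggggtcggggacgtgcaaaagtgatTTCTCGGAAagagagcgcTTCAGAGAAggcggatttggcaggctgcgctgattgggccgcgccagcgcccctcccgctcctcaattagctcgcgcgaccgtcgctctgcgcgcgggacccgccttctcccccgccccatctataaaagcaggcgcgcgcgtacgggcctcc

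In the Irf1 window the GAS letters began 90 bases before the start. The Irf2 window held an ISRE core 241 bases and a GAS match 224 bases before the start, which did not overlap. The Irf8 window held 2 GAS matches, 171 and 153 bases before its first start. GAS letters were thus found in 3 of the 11 windows, against 7.02% of 32851 mouse promoter windows of the same length. The ISRE core was found in 1 of 11, against 2.98%, and AP-1 letters in 0 of 11, against 6.75%. A match describes the letters only, and the absence of one from the Irf4 and Irf5 windows says only that these letters are not in those 250 bases.

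Irf1 was the most abundant member in both populations. IRF1 is a transcriptional activator induced by interferon-gamma, and the gene lies on the plus strand of chromosome 11 (chr11:53770014-53778374, GRCm38). Irf1 stood at 401, 344 and 345 TPM (transcript number scaled to transcript length and to one total for every library) in CD4SP replicates 1, 2 and 3, and at 269, 277 and 186 TPM in CD8SP replicates 1, 2 and 3. All CD4SP values were above all CD8SP values, with means of 364 ± 32.6 and 244 ± 50.1 TPM (SD, n = 3 each). On the log2(TPM + 1) scale, the difference for Irf1 was 0.59 (SE 0.17, 95% interval 0.21 to 0.97), with an adjusted p of 0.038 in limma, and it was 0.31 above the median of all genes. It did not reach 2-fold, and its adjusted p stayed under 0.05 in 4 of the 14 alternatives (range 0.0357 to 0.222). Irf1 ranked at the 96.3rd percentile of tested genes in CD4SP and at the 95.2nd in CD8SP.

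**Figure D1:**
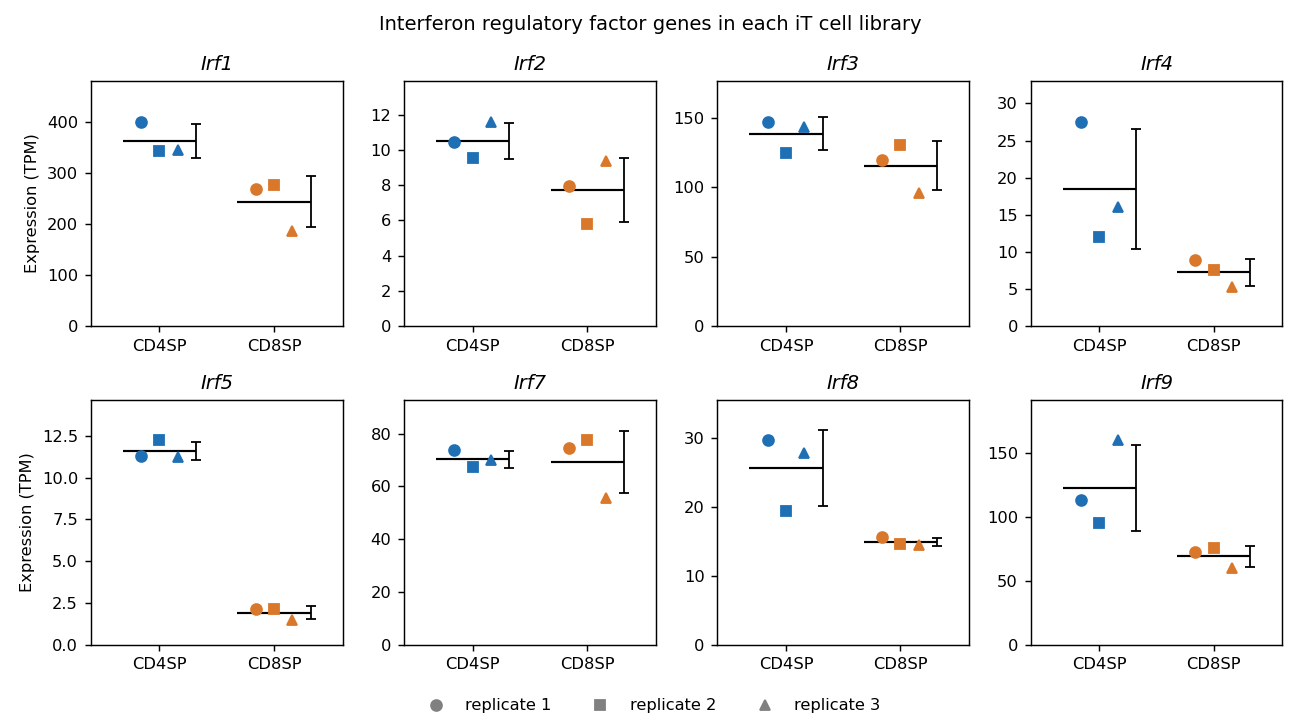
TPM of each IRF gene (vertical axes, each starting at 0) in the 3 CD4SP libraries (blue) and the 3 CD8SP libraries (orange). Symbols mark the replicate number, lines the mean and bars the SD. The populations are furthest apart for Irf5, at 11.3 to 12.2 TPM in CD4SP versus 1.44 to 2.13 TPM in CD8SP, and they overlap for Irf3 and Irf7.

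Irf2 encodes a factor that binds the same elements as IRF1 and can repress them (chr8:46739732-46847458). Its TPM was 10.4, 9.53 and 11.6 in CD4SP and 7.98, 5.80 and 9.39 in CD8SP, in the order of replicates 1 to 3. The lowest CD4SP library was 1.01 times as high as the highest CD8SP library, so that the populations were separate by the smallest margin among the 6 separated genes. The Irf2 difference was 0.42 on the log2 scale (SE 0.22, 95% interval -0.088 to 0.93, adjusted p 0.206 in limma), 0.13 above the median of all genes. It did not pass the test.

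Irf3 and Irf7, the factors that act directly downstream of nucleic acid sensors, showed no detectable difference between the populations. Irf3 (chr7:44997648-45002848, plus strand) is made constitutively in most cells, and its product is activated by phosphorylation. It stood at 147, 125 and 143 TPM in CD4SP versus 120, 130 and 95.7 TPM in CD8SP. CD8SP replicate 2 lay above CD4SP replicate 2, and the log2 difference of Irf3 was 0.27 (SE 0.15, 95% interval -0.066 to 0.61, adjusted p 0.216 in limma), at -0.014 from the median of all genes. Its sign is not settled, since it was -0.035 after median-of-ratios rescaling.

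Irf7 (chr7:141262706-141266481, minus strand) is itself an interferon-stimulated gene and amplifies type I interferon production. It stood at 73.7, 67.2 and 70.1 TPM in CD4SP versus 74.7, 77.5 and 55.7 TPM in CD8SP. CD8SP replicates 1 and 2 lay above every CD4SP library and CD8SP replicate 3 below them all. The log2 difference of Irf7 was 0.035 (SE 0.16, 95% interval -0.32 to 0.39, adjusted p 0.887 in limma), which was -0.25 relative to the median of all genes. It was -0.27 after median-of-ratios rescaling and -0.23 after quantile normalization, and passed the test under neither.

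Irf9 encodes the factor that gives the type I interferon receptor's nuclear complex its DNA contact (chr14:55603571-55610030). Its TPM was 113, 94.9 and 160 in CD4SP and 72.2, 75.3 and 59.8 in CD8SP. Every CD4SP library was higher, and the CD4SP libraries were more spread (SD 33.6 TPM, with replicate 3 the highest) than the CD8SP libraries (SD 8.18 TPM). The log2 difference of Irf9 was 0.79 (SE 0.20, 95% interval 0.34 to 1.25, adjusted p 0.0261 in limma), 0.51 above the median of all genes and short of 2-fold. Its adjusted p stayed under 0.05 in 6 of the 14 alternatives (range 0.0118 to 0.0894).

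Irf4 and Irf8 encode the closest relatives within the family, which bind DNA weakly on their own and act with partners such as BATF-JUN or ETS proteins. Irf4 (chr13:30749226-30766976) stood at 27.5, 11.9 and 16.1 TPM in CD4SP versus 8.91, 7.48 and 5.25 TPM in CD8SP. The populations did not overlap, though CD4SP replicate 1 was well above the other CD4SP libraries, and the means were 18.5 ± 8.07 and 7.22 ± 1.84 TPM (SD, n = 3 each). The log2 difference of Irf4 was 1.19 (SE 0.31, 95% interval 0.48 to 1.91, adjusted p 0.0306 in limma), 0.91 above the median of all genes. This call was kept under 6 of the 14 alternatives. It was lost without CD4SP replicate 1 (log2 difference 0.88, adjusted p 0.0731), CD4SP replicate 3 (adjusted p 0.0751), CD8SP replicate 2 (adjusted p 0.0741) or CD8SP replicate 3 (adjusted p 0.102). It was also lost after median-of-ratios rescaling (log2 difference 0.91, adjusted p 0.0604) and quantile normalization (0.84, adjusted p 0.0778), with no filter on low values (adjusted p 0.0551), and with CD8SP replicates 1 and 2 averaged (adjusted p 0.0582). Under every alternative the Irf4 difference was toward CD4SP, from 0.84 to 1.45.

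Irf8 (chr8:120736358-120756694) is best known for monocyte, dendritic cell and B cell development and is induced in activated T cells. Its TPM was 29.7, 19.4 and 27.9 in CD4SP and 15.6, 14.6 and 14.5 in CD8SP. The CD8SP libraries lay close together, and all 3 were below the lowest CD4SP library. The log2 difference of Irf8 was 0.72 (SE 0.20, 95% interval 0.28 to 1.17, adjusted p 0.0333 in limma), 0.44 above the median of all genes, and did not reach 2-fold. Its adjusted p stayed under 0.05 in 4 of the 14 alternatives (range 0.00581 to 0.115).

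Irf5 showed the largest difference of the 8 genes. IRF5 acts downstream of Toll-like receptors and MYD88 and is best known for driving inflammatory cytokine genes in macrophages and B cells. The gene (chr6:29526625-29541871) stood at 11.3, 12.2 and 11.3 TPM in CD4SP, and at 2.12, 2.13 and 1.44 TPM in CD8SP. The lowest CD4SP library was 5.29 times as high as the highest CD8SP library, and the means were 11.6 ± 0.553 and 1.89 ± 0.395 TPM (SD, n = 3 each). The log2 difference of Irf5 was 2.13 (SE 0.22, 95% interval 1.63 to 2.63, adjusted p 0.000487 in limma), 1.85 above the median of all genes. Irf5 was called under all 14 alternatives, with log2 differences from 1.78 to 2.57 and adjusted p from 0.000453 to 0.00398. In rank, Irf5 stood at the 36.7th percentile of tested genes in CD4SP and at the 10.5th in CD8SP.

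The 3′ end of Irf5 lies over Tnpo3, a nuclear import receptor gene on the opposite strand, and 411 of the 2905 exon bases annotated to Irf5 (14.1%) are shared with it. The sources used here do not say whether the counting used strand, so reads there cannot be assigned. Tnpo3 itself stood at 8.24, 4.26 and 8.42 TPM in CD4SP versus 6.25, 6.97 and 5.38 TPM in CD8SP, and these values overlapped between the populations. In the other members, exon overlap with a neighbour was at most 3.40%, for Irf1 with Gm17334. No near-identical copy of any of the 8 genes was found among the annotated transcripts, at 95% identity or more over at least 200 bases.

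**Figure D2:**
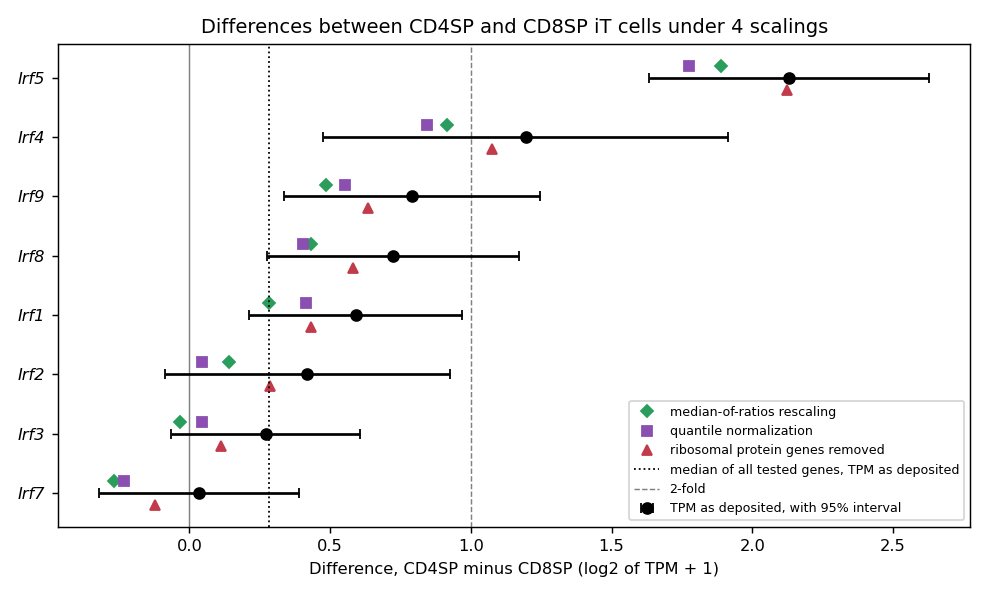
Differences between CD4SP and CD8SP iT cells on the log2(TPM + 1) scale (horizontal axis) for each IRF gene, as black points with 95% intervals, and under 3 other scalings as coloured symbols. The dotted line is the median of all tested genes at 0.28 and the dashed line a 2-fold difference. Irf5 stays beyond 2-fold in all 4 scalings, Irf4 in 2 of them, and Irf3 and Irf7 change sign.

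The order of levels can be read from TPM, which is scaled to transcript length. In CD4SP the order of mean levels was Irf1, Irf3, Irf9, Irf7, Irf8, Irf4, Irf5 and Irf2. Irf1 was above Irf3, Irf9 above Irf7 and Irf7 above Irf8 with no overlap between libraries, whereas Irf3 and Irf9 overlapped, as did each neighbouring pair from Irf8 to Irf2. Irf8 was still above Irf4 in all 3 CD4SP libraries. In CD8SP the order was Irf1, Irf3, Irf7, Irf9, Irf8, Irf2, Irf4 and Irf5. There Irf7 and Irf9 overlapped, as did Irf2 and Irf4, and Irf5 lay below all others, without overlap with Irf4. The 8 genes summed to 814, 684 and 786 TPM in CD4SP and to 570, 590 and 428 TPM in CD8SP.

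Ratios of 2 members within a library do not depend on a single scaling factor per library, though quantile normalization can move them, and they are given as descriptions. Irf7 was 0.502, 0.539 and 0.488 times Irf3 in CD4SP and 0.625, 0.595 and 0.582 times in CD8SP. The ratio of Irf7 to Irf3, the pair acting downstream of nucleic acid sensors, was thus higher in all 3 CD8SP libraries. Irf4 was 0.926, 0.616 and 0.576 times Irf8 in CD4SP and 0.571, 0.513 and 0.362 times in CD8SP. These populations were separated by a small margin, between CD4SP replicate 3 and CD8SP replicate 1.

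Irf2 was 0.0260, 0.0277 and 0.0336 times Irf1 in CD4SP and 0.0297, 0.0210 and 0.0504 times in CD8SP, with overlap. A further pair of ratios was chosen after the values were seen, with Irf7 as the base because its mean level differed least. Irf5 was 0.153, 0.182 and 0.161 times Irf7 in CD4SP and 0.0284, 0.0275 and 0.0258 times in CD8SP, and Irf9 was 1.53, 1.41 and 2.28 times Irf7 in CD4SP and 0.966, 0.972 and 1.07 times in CD8SP. Both ratios were higher in every CD4SP library. As shares of the summed TPM of the 8 genes, Irf5 made up 1.54 ± 0.220% in CD4SP and 0.356 ± 0.0182% in CD8SP, and Irf7 9.27 ± 0.488% and 13.1 ± 0.0681% (SD, n = 3 each).

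**Figure D3:**
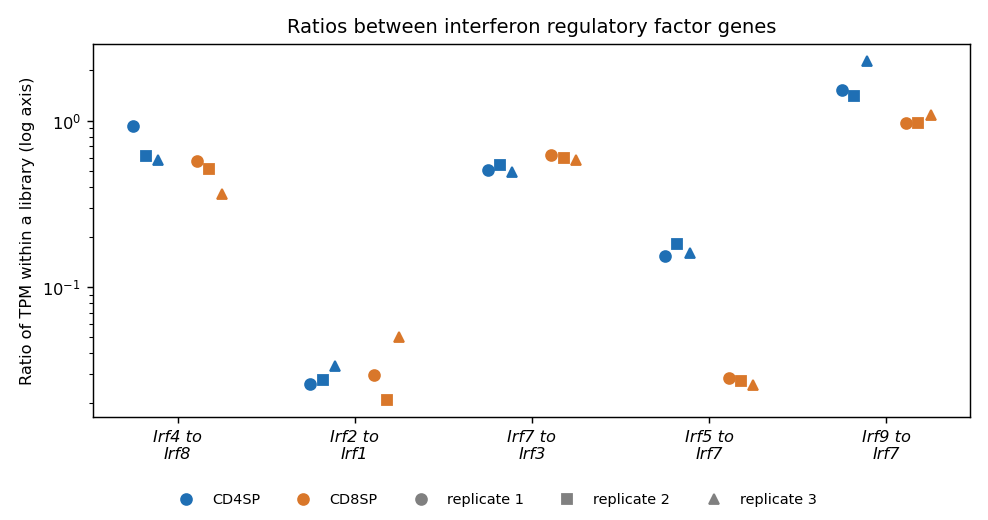
Ratio of the TPM of 2 IRF genes within each library (vertical log axis), for 5 pairs, in CD4SP (blue) and CD8SP (orange), with symbols for the replicate number. The Irf5 to Irf7 ratio lies at 0.153 to 0.182 in CD4SP and 0.0258 to 0.0284 in CD8SP, and the Irf2 to Irf1 ratio overlaps between the populations.

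Likeness was described over the 6 libraries by Pearson's r of log2(TPM + 1), among 6735 genes with a mean of at least 10 TPM. The genes below were picked by this r, so a pattern shared with Irf5 or Irf7 follows from the choice. For Irf5, a high r can come from the gap between the populations alone. The genes most like Irf5 were Arntl (r = 0.9996), Rgs10, Camk4, Bmyc and Folr4 (each r = 0.999). Arntl, a core clock activator, stood at 37.9, 38.9 and 38.9 TPM in CD4SP versus 15.5, 15.5 and 13.3 TPM in CD8SP. Folr4, the name in the files for folate receptor 4 of regulatory T cells, stood at 428, 485 and 438 TPM in CD4SP versus 38.1, 37.8 and 29.7 TPM in CD8SP. As with Irf5, the CD4SP libraries were close together and CD8SP replicate 3 was lowest. The genes most like Irf7, the member with the lowest difference, were Acp1 (r = 0.994), Bin2 (r = 0.989), Arfip2 (r = 0.988), Mbd3 (r = 0.986) and Sumo3 (r = 0.985). Acp1, a phosphatase gene, was like Irf7 lowest in CD8SP replicate 3, at 20.8 TPM against 23.7 to 26.2 TPM in the other libraries.

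The libraries differed in ways that touch several members at once. CD8SP replicate 3 was the lowest CD8SP library for 7 of the 8 genes, and CD4SP replicate 2 the lowest CD4SP library for 7 of the 8. CD8SP replicates 1 and 2 were more alike than any other pair, with a median absolute log2 difference of 0.075 over 4884 genes above a mean of 20 TPM, against 0.170 to 0.313 for the other pairs. Whether they differ by more than sampling noise cannot be tested from TPM, and results with them averaged are given above for Irf4 and below in the closing section. TPM summed to 997896 to 998100 per library, 9971 to 10649 genes reached 1 TPM, and the sequencing depth behind the values is unknown. Cd4 stood at 279 to 331 TPM in the CD4SP libraries and at most 0.104 TPM in the CD8SP libraries, and Cd8a at most 2.93 and at least 1038 TPM, as the labels give them.

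Genes around the IRFs were taken from lists of the pathway, and each count of called genes is to be read against the 7.92% of tested genes called higher in CD4SP and the 1.80% called higher in CD8SP. Of 8 interferon genes, Ifna1, Ifna2, Ifna4, Ifna5, Ifnb1, Ifnl2 and Ifnl3 were listed at 0 in all 6 libraries. Ifng, the interferon made by T cells, stood at 68.3, 72.1 and 62.3 TPM in CD4SP versus 83.3, 83.4 and 78.2 TPM in CD8SP. Every CD8SP library was above every CD4SP library, but the log2 difference of Ifng, -0.27 (SE 0.12), did not pass the test (adjusted p 0.144 in limma).

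Of 9 genes of interferon receptor signalling, 2 were called higher in CD4SP (7.92% of all tested genes) and none higher in CD8SP (1.80%), with a median log2 difference of 0.62 against 0.28 over all tested genes. Ifngr2, the signalling chain of the interferon-gamma receptor, stood at 9.22, 16.3 and 8.75 TPM in CD4SP versus 0.900, 2.01 and 1.27 TPM in CD8SP (log2 difference 2.35, adjusted p 0.00158 in limma). It was the 1 gene of this list to pass the filter on low values through CD4SP alone. That gene was Socs1, a feedback inhibitor of the receptors, at 34.1 to 72.1 TPM in CD4SP versus 18.3 to 27.1 TPM in CD8SP (log2 difference 1.02, adjusted p 0.0329 in limma). Stat2, which encodes a partner of IRF9, had a log2 difference of 0.72 (adjusted p 0.0304) and stayed below 2-fold, as Irf9 did, and the type I receptor chains Ifnar1 and Ifnar2 overlapped between the populations.

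Of 17 sensors, adaptors and kinases that act upstream of IRF3, IRF5 and IRF7, 14 were tested, with a median log2 difference of 0.45. Ifih1, the RNA sensor MDA5, was the 1 gene of 14 called higher in CD4SP, about the 7.92% of all tested genes, at 13.4, 7.45 and 13.9 TPM against 4.09, 5.84 and 3.97 TPM in CD8SP (log2 difference 1.13, adjusted p 0.0247 in limma), and none was called higher in CD8SP. Tmem173, the adaptor STING, stood at 183 to 240 TPM in CD4SP versus 104 to 132 TPM in CD8SP, and Ikbke, a kinase of IRF3 and IRF7, at 147 to 164 and 87.0 to 98.9 TPM. Neither reached 2-fold. Tlr9 was listed at 0 in all libraries, Tlr3 and Tlr4 were below 1 TPM, and Tlr7 was detected in all 6 libraries, at 1.02, 5.78 and 0.585 TPM in CD4SP versus 1.9996, 2.80 and 2.60 TPM in CD8SP, with overlap. Myd88, the adaptor that links Toll-like receptors to IRF5, overlapped between the populations.

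Among the partners and cofactors of IRFs, 9 of 11 were tested, with a median log2 difference of 0.56, 2 called higher in CD4SP (7.92% of all tested genes) and 0 in CD8SP (1.80%). Junb, a partner of BATF in IRF4 complexes, stood at 393, 302 and 351 TPM in CD4SP versus 186, 165 and 132 TPM in CD8SP (log2 difference 1.12, adjusted p 0.0024 in limma). Irf2bp2, which encodes an IRF2-binding corepressor, stood at 17.8, 24.0 and 15.4 TPM in CD4SP versus 6.19, 7.43 and 4.73 TPM in CD8SP (log2 difference 1.49, adjusted p 0.00398 in limma). Batf stood at 215 to 249 TPM in CD4SP versus 110 to 134 TPM in CD8SP, with a log2 difference of 0.85 (adjusted p 0.00325 in limma) that stayed below 2-fold.

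Genes that respond to type I interferon did not move one way. Of 24 tested, 3 were called higher in CD4SP (Ifi27l2a, Cmpk2 and Oas2) and 1 higher in CD8SP (Ifit3), against 7.92% and 1.80% of all tested genes, and the median log2 difference was 0.25, close to that of all genes. Ifi27l2a stood at 1245, 1961 and 1350 TPM in CD4SP versus 339, 328 and 411 TPM in CD8SP (log2 difference 2.05, adjusted p 0.000231 in limma). Ifit3, an antiviral RNA-binding protein gene, stood at 12.5, 6.78 and 21.9 TPM in CD4SP versus 33.8, 36.7 and 31.95 TPM in CD8SP (log2 difference -1.39, adjusted p 0.0247 in limma). The other 20 did not pass, among them Mx1, with every CD8SP library higher (log2 difference -0.71, adjusted p 0.0104) and below 2-fold.

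Of 16 tested genes that respond to interferon-gamma and IRF1, 2 were called higher in CD4SP and none in CD8SP, against 7.92% and 1.80% of all tested genes, with a median log2 difference of 0.56. These were the guanylate-binding protein gene Gbp3, at 58.1, 43.2 and 70.9 TPM in CD4SP versus 26.2, 23.4 and 20.6 TPM in CD8SP, and the immunity-related GTPase gene Igtp, at 472, 344 and 442 TPM and 181, 179 and 171 TPM. The log2 differences were 1.24 for Gbp3 and 1.23 for Igtp. Tap1, a transporter of peptides for MHC class I, had a log2 difference of 0.58 (adjusted p 0.00865 in limma), near that of Irf1 and likewise below 2-fold.

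Of 15 tested effector genes associated with IRF4 in T cells, 13 were called higher in CD4SP and none in CD8SP, against 7.92% and 1.80% of all tested genes, with a median log2 difference of 2.40. Of these, Il1rl1, Ccr8, Il4, Il17a and Bcl6 passed the filter on low values through the CD4SP libraries alone. The filter favours a difference toward CD4SP in such genes, so their calls carry no support. The median of 2.40 includes these 5 genes. Of the other 10, 8 were called. Prdm1, the repressor BLIMP-1, stood at 13.5, 12.9 and 13.6 TPM in CD4SP versus 3.67, 3.95 and 3.59 TPM in CD8SP (log2 difference 1.59, adjusted p 0.000998 in limma). Maf, a factor of helper cytokine genes, stood at 42.2, 53.6 and 69.7 TPM in CD4SP versus 2.76, 3.40 and 1.36 TPM in CD8SP (log2 difference 4.02). Il10, an inhibitory cytokine gene, stood at 54.1, 24.7 and 53.6 TPM in CD4SP versus 1.74, 2.45 and 11.2 TPM in CD8SP (log2 difference 3.13, adjusted p 0.00608 in limma). Havcr2 and Tigit, inhibitory receptor genes, were the genes that did not pass. Several genes of this list, such as Maf, Ctla4 and Icos, are also known from helper and regulatory CD4 cells. Over these 7 lists, 24 genes were called in all. This count includes Ifngr2 and the 5 genes of the last list that passed the filter through CD4SP alone.

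**Figure D4:**
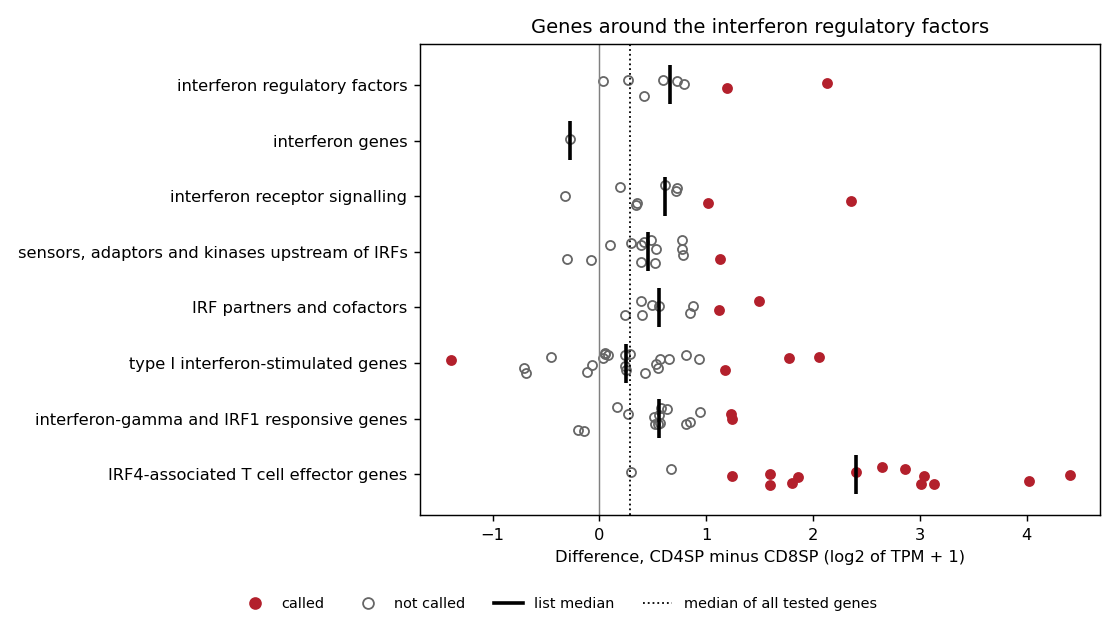
Differences between CD4SP and CD8SP iT cells on the log2(TPM + 1) scale (horizontal axis) for the tested genes of each list, with called genes filled. Thick bars are list medians and the dotted line is the median of all tested genes, 0.28. The list medians run from -0.27 for Ifng, the single tested interferon gene, to 2.40 for the 15 effector genes associated with IRF4. That median includes 5 genes that passed the filter on low values through CD4SP alone.

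Markers of other cells were read beside the IRF genes, since several members are abundant in cells that a sort can carry over. Of 7 regulatory T cell markers, 6 were called higher in CD4SP, against 7.92% of all tested genes. Ikzf4 and Lrrc32 passed the filter on low values through CD4SP alone, and without them 4 of 5 were called. The 7 markers summed to 972 to 1235 TPM in CD4SP versus 186 to 216 TPM in CD8SP. Foxp3, their defining factor, stood at 142, 6.56 and 167 TPM in CD4SP versus 7.48, 7.48 and 10.05 TPM in CD8SP. Foxp3 itself did not pass the test (adjusted p 0.1005 in limma). CD4SP replicate 2 was the lowest CD4SP library for both Foxp3 and Irf4, whereas Irf5 was highest there, at 12.2 TPM. The other 6 regulatory T cell markers stayed above every CD8SP library there. Lrrc32 was highest in that library (62.5 TPM, against 42.6 and 56.0 TPM), and Il2ra stood at 92.0 TPM, between 95.7 and 82.1 TPM. Tnfrsf18, Ikzf2, Ikzf4 and Nrp1 were lowest there by smaller margins, as with Tnfrsf18 at 712 TPM against 835 and 769 TPM. Without this library the log2 difference of Irf4 was 1.45. The part of regulatory T cells in the Irf4 result was not tested.

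Irf5 and Irf8 are abundant in B and myeloid cells. Of 7 B cell markers, Ms4a1 and Pax5 were listed at 0 in every library, and the summed level was 20.1 to 27.0 TPM in CD4SP versus 31.998 to 33.017 TPM in CD8SP. Within the list, Cd79a was higher in every CD4SP library (2.23 to 3.56 TPM, against 1.52 to 1.73 TPM in CD8SP) and did not pass the test, Cd79b was higher in every CD8SP library and did not pass, and Cd22 was called higher in CD8SP. The part of B cells in the Irf5 and Irf8 results was not tested. Of 7 monocyte and macrophage markers, Csf1r did not exceed 0.683 TPM and the summed levels, 18.2 to 32.8 TPM in CD4SP versus 20.9 to 24.6 TPM in CD8SP, overlapped. Lyz2 was called higher in CD4SP. Cd68 was called higher in CD8SP, but only in CD8SP did all 3 libraries reach the 1 TPM of the filter, so its call carries no support. Neutrophil markers in the table were all at 0, and plasmacytoid dendritic cell markers summed to at most 0.632 TPM. Of the NK cell markers, Ncr1, Klra4 and Klra8 were at 0. Klrb1c was called higher in CD8SP, but here too only in CD8SP did all 3 libraries reach 1 TPM, so its call carries no support. Erythroid markers summed to at most 1.11 TPM, and the 8 T cell markers to 6505 to 6749 TPM in CD4SP versus 5329 to 5991 TPM in CD8SP.

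Of 8 dendritic cell markers, the MHC class II genes H2-Aa, H2-Ab1 and Cd74 were called higher in CD4SP. Itgax was called higher in CD8SP, but passed the filter on low values through the CD8SP libraries alone, so its call carries no support. Clec9a was at 0, Flt3 did not exceed 0.317 TPM and Zbtb46 did not exceed 0.869 TPM. Xcr1 overlapped between the populations, at 3.78 to 6.20 TPM in CD4SP versus 2.52 to 4.39 TPM in CD8SP. The list summed to 91.3 to 117 TPM in CD4SP versus 45.2 to 54.5 TPM in CD8SP. Most of the CD4SP sum came from the MHC class II genes, with means of 41.1 TPM for H2-Ab1, 32.8 TPM for H2-Aa and 22.3 TPM for Cd74. The sum therefore does not describe the other markers of the list. The part of antigen-presenting cells in the Irf5 and Irf8 results was not tested. In such sorted bulk samples, a lower level of a gene can come from fewer cells that express it or from less RNA per cell, which cannot be told apart.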

How the data were processed

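Polyadenylated RNA of sorted iT cells was amplified with a whole-transcriptome kit and sequenced. The authors aligned reads to mm10 with HISAT2 and deposited gene levels from StringTie as TPM, which are scaled to transcript length and to the same total in every library. TPM carry no read counts, so depth is unknown and no count test was run. Groups and replicate numbers were read from the sample titles. Values were tested as log2(TPM + 1) with limma 3.58.1 in R 4.3.3 (two-sided, moderated with a mean-variance trend), over genes that reached 1 TPM in 3 or more libraries. P-values were adjusted by Benjamini-Hochberg over all 10476 genes. A gene was called at an adjusted p under 0.05 and over 2-fold. The fold change understates that of low genes. The IRF genes and all gene lists were chosen with earlier results of these data known, and a pathway gene is not reported here. Named were all 8 members, any gene of a list, and the 5 genes most like the members at each end of the differences. Gene positions are from GENCODE M21 (GRCm38), and copies were searched with blastn 2.17.0. Alternatives covered pseudocount, filter, scaling, blocking, the fold threshold, and leaving out or averaging libraries.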

Additional observations from a re-analysis of the deposited data

How the results depend on the processing

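The count of called IRF genes, 2 in the fit reported, was 1 under quantile normalization, 1 with no filter on low values, 1 with median-of-ratios rescaling and 1 with CD8SP replicates 1 and 2 averaged. It was 5 with no fold threshold and ranged from 1 to 2 with single libraries left out. The gene lost was Irf4 each time, and Irf5 was called throughout. The count of called list genes, 24 in the fit reported, became 43 with no fold threshold and lay between 18 and 25 otherwise. The 24 include Ifngr2, Il1rl1, Ccr8, Il4, Il17a and Bcl6, which passed the filter on low values through CD4SP alone. The alternatives were not recounted without these genes. The sign turned for Irf3 after median-of-ratios rescaling (-0.035). For Irf7 it turned under median-of-ratios rescaling (-0.27), under quantile normalization (-0.23) and removal of ribosomal protein genes (-0.12), and leaving out single libraries gave -0.11 (without CD8SP replicate 3) to 0.12. The cause was not tested. Same-numbered libraries deviated with correlations of 0.052, -0.017 and 0.089, which shows no detectable pairing by number, and whether same-numbered libraries share a mouse is unknown. A replicate block gave 2 called IRF genes and 24 list genes, and 997 genes against 1019 over the whole table. The 1 TPM filter and the unknown depth limit low genes such as Irf5 in CD8SP.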
